A study of Rattus norvegicus with 2 samples.

Results

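The 9 genes Gpihbp1, Lpl, Cd36, Slc27a1, Fabp4, Fabp5, Fabp3, Rbp7 and Pparg, chosen for fatty acid uptake by capillaries, were followed across the cell types of rat and chimera skeletal muscle. They were found by matching the gene name of each row, without its species ending, to these 9 names. In the Sprague Dawley (SD) rat library 7 of 23373 rows matched, and in the chimera library 16 of 49280 rows matched, 7 on the rat genome and 9 on the mouse genome. Cd36 and Fabp5 are reported from mouse rows only, and rat Cd36 and Fabp5 were not analysed here. The rows carry Ensembl identifiers, for rat ENSRNOG00000064680 (Gpihbp1), ENSRNOG00000012181 (Lpl), ENSRNOG00000018170 (Slc27a1), ENSRNOG00000010805 (Fabp4), ENSRNOG00000012879 (Fabp3), ENSRNOG00000015850 (Rbp7) and ENSRNOG00000008839 (Pparg), and for mouse ENSMUSG00000002944 (Cd36) and ENSMUSG00000027533 (Fabp5).

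The study asked which cell types of an adult rat-mouse chimera came from mouse induced pluripotent stem cells (iPSCs). The chimera came from an SD rat morula injected with mouse iPSCs that carried Dmd mdx, had been edited at the dystrophin gene with CRISPR/Cas9, and bore the Pax7-nGFP reporter. Muscle of 1 chimera and of 1 SD rat was digested with collagenase II, live cells were sorted with Calcein Violet, and 3′ single-cell RNA libraries were made. The rat cells of both animals are thus of SD origin, and those of the chimera shared their tissue with mouse cells derived from the edited iPSCs. With 1 library per animal there was no replicate, so no p-value is given, and every interval below is a 95% interval that covers counting error only.

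Barcodes of the chimera were called rat when at most 20% of their UMIs (unique molecular identifiers, 1 per captured transcript) lay on mouse rows and mouse when at least 80% did. This left 8816 SD rat cells, 8230 chimera rat cells and 1847 chimera mouse cells, while 1653 barcodes with both species were left out. The kept vascular endothelial cells (EC) numbered 1571 in the SD rat, 719 among chimera rat cells and 931 among chimera mouse cells, with median UMI counts per cell of 1859, 3437 and 5447. The corresponding numbers were 1530, 833 and 29 for myocytes (myofibre barcodes), 3201, 2605 and 124 for fibro-adipogenic progenitors (FAPs), 548, 585 and 40 for tenocytes or fibroblasts, and 608, 1170 and 99 for myeloid cells (macrophages, monocytes and neutrophils pooled). Each name means cells that resemble that type by its markers. In EC, all 15 of 15 listed endothelial markers were detected in each population, and their summed level was 8652, 7522 and 8500 CPM against 202.5, 174.7 and 255.8 in FAPs, where CPM are UMIs per 1000000 UMIs of a class. EC were named by these same markers, so the values describe the naming. Summed myofibre markers in EC were at 22658, 9031 and 743.9 CPM, against 304939, 327520 and 296248 in myocytes. A further 154 mouse cells led by globin genes together with endothelial genes were left unnamed. Clusters of 453 SD rat cells (median 718 UMIs) and 449 chimera rat cells, also led by globin genes, were kept as EC. So were 418 SD rat cells (median 1352 UMIs) with globin genes among their top genes. The EC were thus not delimited alike in the 2 species. The libraries shared 43 barcode sequences.

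Muscle takes up fatty acids from triglyceride-rich lipoproteins in its capillaries. Lipoprotein lipase (Lpl) is made largely by parenchymal and stromal cells, and GPIHBP1 carries it across the endothelium and anchors it on the capillary surface. The fatty acids it releases enter cells with the help of CD36 and the fatty acid transport protein SLC27A1, are bound in the cytosol by the fatty acid binding proteins FABP3, FABP4 and FABP5, and can activate the nuclear receptor PPARγ (Pparg), of which Fabp4, Cd36 and Rbp7 are known targets in endothelium or fat. Rbp7 belongs to the cellular retinol binding proteins, a family related to the fatty acid binding proteins.

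Upstream sequences of 3 of these genes are shown because Rbp7 and, on the mouse row, Cd36 stood out in endothelium and Fabp3 in myocytes. No upstream sequence was available for Gpihbp1, Fabp4, Lpl and Fabp5, so these genes are not covered. The Cd36 sequence is that of the rat gene, whose level was not analysed here. Each run is the 250 bases before the annotated start in RefSeq (rat build GRCr8), 5′ to 3′ on the strand of the gene, with the core GGAA of ETS family binding sites in capitals on either strand (TTCC on the other strand).
Rbp7, chr5:165177400-165177649, minus strand: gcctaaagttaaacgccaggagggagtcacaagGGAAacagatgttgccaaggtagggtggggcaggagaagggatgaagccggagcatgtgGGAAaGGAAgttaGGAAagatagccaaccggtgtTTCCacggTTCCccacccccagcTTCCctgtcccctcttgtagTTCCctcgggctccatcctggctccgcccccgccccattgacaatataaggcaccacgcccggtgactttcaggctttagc
Cd36, chr4:18246332-18246581, plus strand: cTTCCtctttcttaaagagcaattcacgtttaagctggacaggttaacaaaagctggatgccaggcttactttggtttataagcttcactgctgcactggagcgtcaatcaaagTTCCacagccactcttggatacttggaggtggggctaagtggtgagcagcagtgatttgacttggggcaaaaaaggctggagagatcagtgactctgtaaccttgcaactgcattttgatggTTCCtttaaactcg
Fabp3, chr5:147935875-147936124, plus strand: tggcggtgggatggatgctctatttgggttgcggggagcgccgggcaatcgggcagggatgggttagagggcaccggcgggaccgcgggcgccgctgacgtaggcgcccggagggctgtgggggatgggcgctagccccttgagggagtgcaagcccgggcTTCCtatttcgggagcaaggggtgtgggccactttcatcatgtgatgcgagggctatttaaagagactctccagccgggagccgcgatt
Rbp7 held 8 copies of the core, Cd36 3 and Fabp3 1, while 93.2% of 33469 such windows held at least 1 and the median window held 3 (quartiles 2 and 4). The core was searched after the levels were known, and it was not counted for Slc27a1 and Pparg. A pair of half-sites spaced by 1 base, AGGTCANAGGTCA, to which PPARγ can bind with its partner RXR, was searched on both strands in windows of 250 bases before to 50 after the start. It was in none of the 6 windows of Cd36, Slc27a1, Fabp3, Rbp7 and Pparg (2 starts) and in 18 of all 33469 windows (0.0538%). The single half-site AGGTCA, which the pair contains, was in 1 of these 6 windows, that of Slc27a1, and in 16.2% of all windows. A match of letters is not a binding site, and the absence of these letters says nothing about the receptor.

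Among the 5 classes compared, Gpihbp1, Fabp4, Rbp7 and mouse Cd36 were endothelial genes in each population in which they were measured. Fabp3 was highest in myocytes, Lpl was shared by EC and FAPs, and Pparg was shared by EC and myeloid cells. Of the members measured, 5 of 7 in the SD rat, 4 of 7 in chimera rat cells and 6 of 9 in chimera mouse cells had their highest level in EC among the 5 classes compared. At least 2-fold above each of the other 4 classes stood 3, 3 and 4 of them, against 9.32%, 8.09% and 5.92% of all genes tested in the same way. The members were listed as capillary genes with the literature and earlier results known, so these counts describe the list. The levels below are CPM, the UMIs of a gene per 1000000 UMIs of all cells of a class on the rows of their own species. Since capture differs between genes at the 3′ end, levels are compared within a gene and not between genes.

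**Figure D1:**
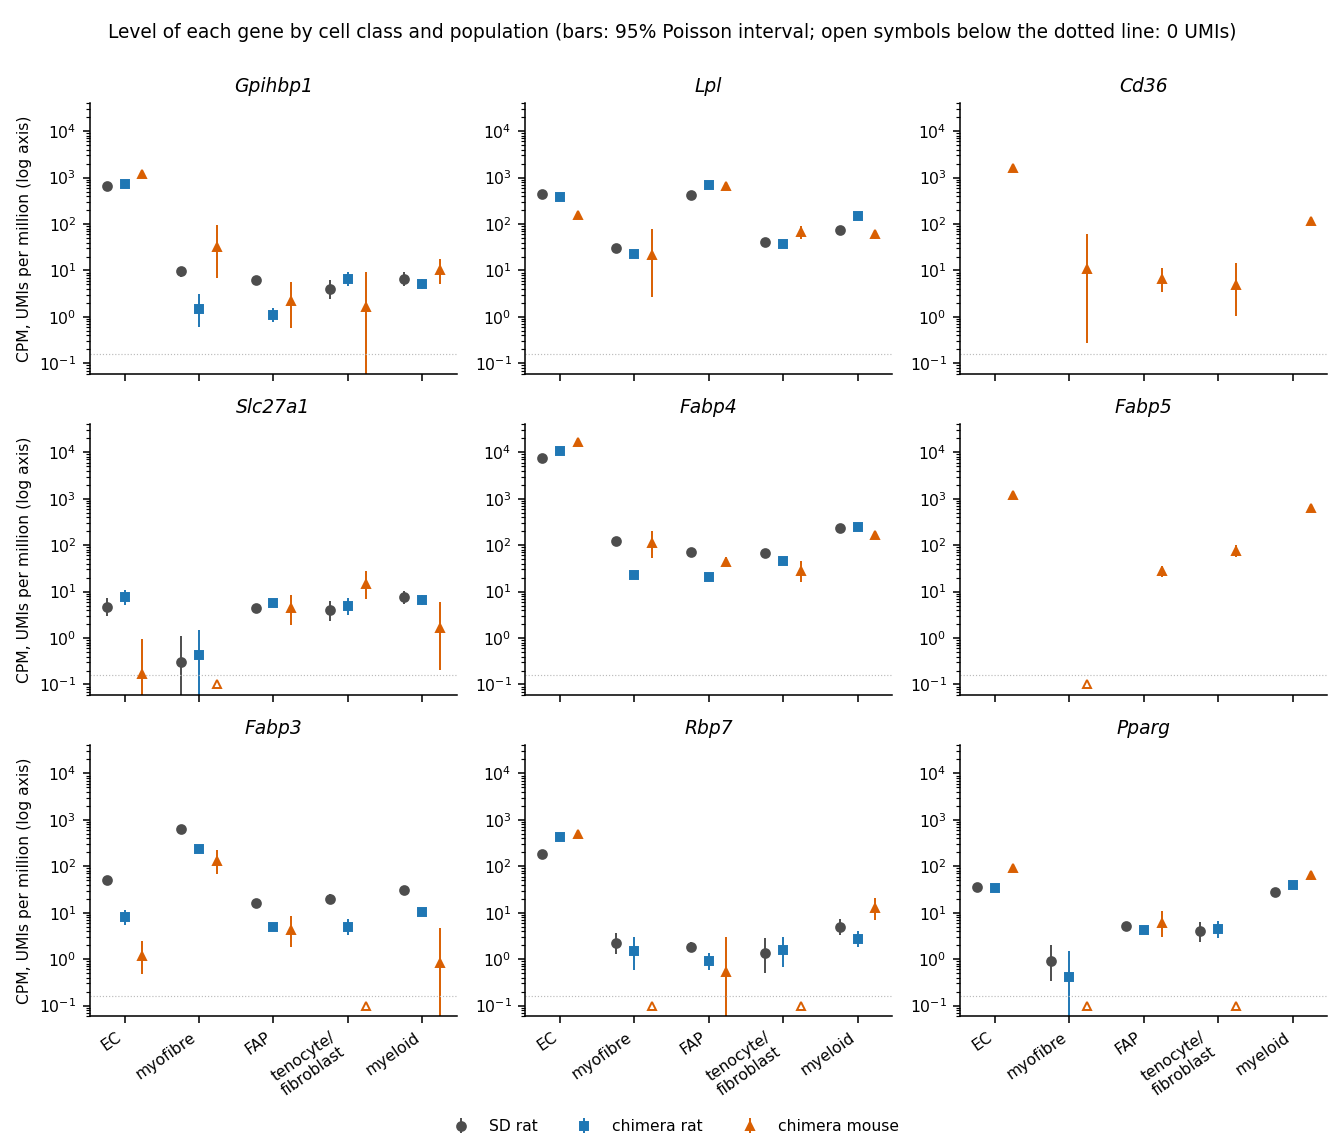
Level of each gene (CPM on a log axis) in 5 cell classes, with SD rat cells as circles, chimera rat cells as squares and chimera mouse cells as triangles; bars are 95% Poisson intervals and open symbols mark classes with 0 UMIs. Gpihbp1, Fabp4 and Rbp7 stand highest in EC in all 3 populations, Fabp3 in myocytes, and Lpl is high in both EC and FAPs.

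Gpihbp1, the anchor of lipoprotein lipase on capillaries, was at 646.5 CPM (623.6 to 670.1) in SD rat EC. It was at 724.6 (697.7 to 752.2) in chimera rat EC and 1194.4 (1166.7 to 1222.6) in chimera mouse EC. The next of the 5 classes was at 9.53, 6.56 and 32.6 CPM, so EC were 67.9-, 110.4- and 36.6-fold higher. The last ratio is against 3 UMIs in 29 mouse myocytes, with a log2 interval of 3.65 to 7.47. Pericytes or mural cells, outside these 5 classes, were at 255.2 CPM in the SD rat and 171.0 in chimera rat cells. They also held endothelial markers at a summed 3383 and 2314 CPM, whose part in this level was not tested. The transcript was seen in 43.9% of SD rat EC, 60.6% of chimera rat EC and 77.8% of chimera mouse EC, against 4.56%, 1.11% and 3.23% of FAPs, which had a greater depth (medians of 10929, 10616 and 14585 UMIs). The depth of EC rose in the same order as their shares (medians of 1859, 3437 and 5447 UMIs), so these shares are not compared between populations.

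Fabp4, the binding protein of fat cells and capillaries, was at 7385 CPM in SD rat EC, 10759 in chimera rat EC and 16807 in chimera mouse EC. Of the 5 classes, myeloid cells came next at 236.4, 242.4 and 167.2 CPM, 31.2-, 44.4- and 100.5-fold below EC. Pericytes or mural cells, outside these 5, were closer to EC. In the SD rat they held 6743 Fabp4 UMIs among 1857622, against 34268 among 4640094 in EC. In chimera rat cells they held 8557 among 2567453, against 40712 among 3784116. The part of endothelial transcripts in this level was not tested. Nearly all EC carried Fabp4, at 88.3%, 91.9% and 98.4% of cells, but so did 35.4%, 11.4% and 37.9% of FAPs. When each cell was thinned to 1000 UMIs, the share of FAPs was 5.85%, 1.43% and 3.28%, while that of EC was 87.4%, 90.7% and 96.4%. Of 8 adipocyte markers, 5, 6 and 6 were at 0 UMIs in EC, and the summed level of the list was 16.8, 8.98 and 0.51 CPM.

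Rbp7 was at 181.7 CPM (169.6 to 194.4) in SD rat EC, 418.6 (398.2 to 439.7) in chimera rat EC and 501.2 (483.3 to 519.6) in chimera mouse EC. Outside EC it did not exceed 4.99, 2.77 and 12.6 CPM in the other 4 classes. EC were 36.4- and 151.3-fold above the next of these classes in the rat populations. Pericytes or mural cells, outside these classes, held 152 Rbp7 UMIs among 1857622 in the SD rat and 253 among 2567453 in chimera rat cells. The EC of these populations held 843 among 4640094 and 1584 among 3784116. In the mouse population EC were 39.8-fold above myeloid cells, the highest observed of the other classes (15 UMIs). They were 15.4-fold above the myocytes, where the 0 UMIs observed were set to a floor of 3. The lower limit of that log2 ratio was 3.64. The share of EC with a Rbp7 UMI was 23.6%, 49.4% and 43.1%, and 12.3%, 27.2% and 23.9% after thinning to 1000 UMIs, which left out 447, 65 and 74 shallower EC.

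Cd36, the fatty acid translocase, was at 1626 CPM (1593 to 1659) in chimera mouse EC, where 90.7% of cells carried it. Myeloid cells, which use CD36 as a scavenger receptor, were at 115.1 CPM, 14.1-fold lower. FAPs, tenocytes and myocytes were at 6.50, 4.97 and 10.9, the last from 1 UMI. Fabp5, the epidermal type of binding protein, was more widely spread. It was at 1229 CPM (1201 to 1258) in mouse EC and 640.2 in mouse myeloid cells, 1.92-fold lower, and it was also high in mouse Schwann or glial cells (855.5). Of the 46 Fabp5 UMIs in mouse tenocytes or fibroblasts, 40 came from 1 cell.

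Pparg, the receptor, was at 35.1 CPM (29.9 to 41.0) in SD rat EC and 27.7 in SD rat myeloid cells. In chimera rat cells it was at 33.8 (28.2 to 40.2) in EC and 40.1 in myeloid cells, a log2 ratio of -0.25 whose interval of -0.54 to 0.04 included 0. These levels are those of the rat row alone. The mouse row held 31.2% of the Pparg UMIs of chimera rat EC and 15.2% of those of the myeloid cells. In chimera mouse cells EC stood at 90.4 (82.9 to 98.4) and myeloid cells at 63.9. Neither class was 2-fold above the other in any population, at 1.27-fold for EC over myeloid cells in the SD rat, 1.19-fold for myeloid cells over EC in chimera rat cells and 1.42-fold for EC over myeloid cells in mouse cells. FAPs, which can become fat cells, were at 5.25, 4.15 and 5.96 CPM, and myocytes at 0.91, 0.42 and 0. Chimera rat T or NK cells, outside these 5 classes, held 169 Pparg UMIs among 5791317, against 128 among 3784116 in EC.

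Lpl did not follow the endothelial pattern. In the SD rat it was at 444.0 CPM (425.0 to 463.5) in EC and 425.1 (418.4 to 431.9) in FAPs, a log2 ratio of 0.06 with an interval that reached 0. In chimera rat cells FAPs were 1.79-fold above EC (697.3 against 389.8), and in chimera mouse cells 4.05-fold (646.1 against 159.6). The last ratio exceeded 2-fold over each of the other 4 classes, as did 2.90% of all genes in mouse FAPs. Myogenic progenitors, a class outside these 5, were at 1234 CPM in the SD rat and 927 in chimera rat cells, but at 47.8 (22 UMIs in 47 cells) in mouse cells. Pericytes or mural cells were at 603.5 and 562.0 in the rat populations, and these pericytes also held endothelial markers at a summed 3383 and 2314 CPM, whose part in this level was not tested. Myocytes were low in Lpl at 29.8, 23.0 and 21.8 CPM, the last from 2 UMIs.

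Fabp3, the heart and muscle type of binding protein, was at 642.9 CPM (623.7 to 662.5) in SD rat myocytes, 240.8 (227.0 to 255.2) in chimera rat myocytes and 130.5 (67.4 to 228.0, from 12 UMIs) in chimera mouse myocytes. It was 12.9-fold above the next class in the SD rat and 22.9-fold in chimera rat cells, where 7.53% and 5.91% of all genes stood at least 2-fold above the other classes in myocytes. In EC it was at 50.0, 7.93 and 1.18 CPM. Slc27a1, a transport protein, was scarce everywhere among these classes. Its level was 4.74 CPM in SD rat EC (22 UMIs), 7.66 in chimera rat EC (29 UMIs) and 0.17 in mouse EC (1 UMI), and it was highest in Schwann or glial cells at 24.4, 33.4 and 42.8, the last from 4 UMIs, and in SD rat mast cells at 30.2.

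Fabp3 and Fabp4 were seen at a low level in every class, and these levels were set against those of genes of the class in which each was highest. In the SD rat, Fabp3 had 2.11 UMIs per 1000 UMIs of 13 myofibre markers in myocytes (2.05 to 2.17). The ratio was 2.21 in EC (1.93 to 2.51), 2.20 in FAPs (2.03 to 2.38), 2.11 in tenocytes (1.69 to 2.59) and 2.20 in myeloid cells (1.88 to 2.57). The 5 intervals overlapped, so the Fabp3 of SD rat EC stood in the same proportion to myofibre transcripts as that of myocytes within counting error. The part of free RNA in it was not tested. Pericytes or mural cells of the SD rat, outside these 5 classes, lay above myocytes at 3.61 (3.00 to 4.29). In chimera rat cells the ratio was 0.74 in myocytes (0.69 to 0.78), 0.88 in EC (0.59 to 1.25) and 0.98 in tenocytes (0.64 to 1.44). It was 1.22 in FAPs (1.03 to 1.44) and 1.22 in myeloid cells (1.01 to 1.47). Pericytes or mural cells had 2.23 (1.66 to 2.92), so that FAPs, myeloid cells and pericytes lay above myocytes.

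For Fabp4, the reference was Gpihbp1. SD rat EC had 11.4 Fabp4 UMIs per Gpihbp1 UMI (11.0 to 11.9), FAPs 11.6 (10.1 to 13.4) and myocytes 12.8 (9.91 to 16.8). Tenocytes or fibroblasts had 16.9 (10.5 to 28.9), and these intervals overlapped. Chimera rat EC had 14.8 (14.3 to 15.4), FAPs 18.6 (13.0 to 27.4) and myocytes 15.3 (7.17 to 38.9). Chimera rat tenocytes or fibroblasts were below EC at 6.88 (4.79 to 10.2). Pericytes or mural cells had 14.2 (13.0 to 15.6) in the SD rat and 19.5 (17.7 to 21.5) in chimera rat cells. Myeloid cells had 35.2 (25.2 to 50.7) in the SD rat and 46.9 (36.0 to 62.3) in chimera rat cells, above the EC of either population. The part of free RNA in the Fabp4 of these classes outside EC was not tested.

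**Figure D2:**
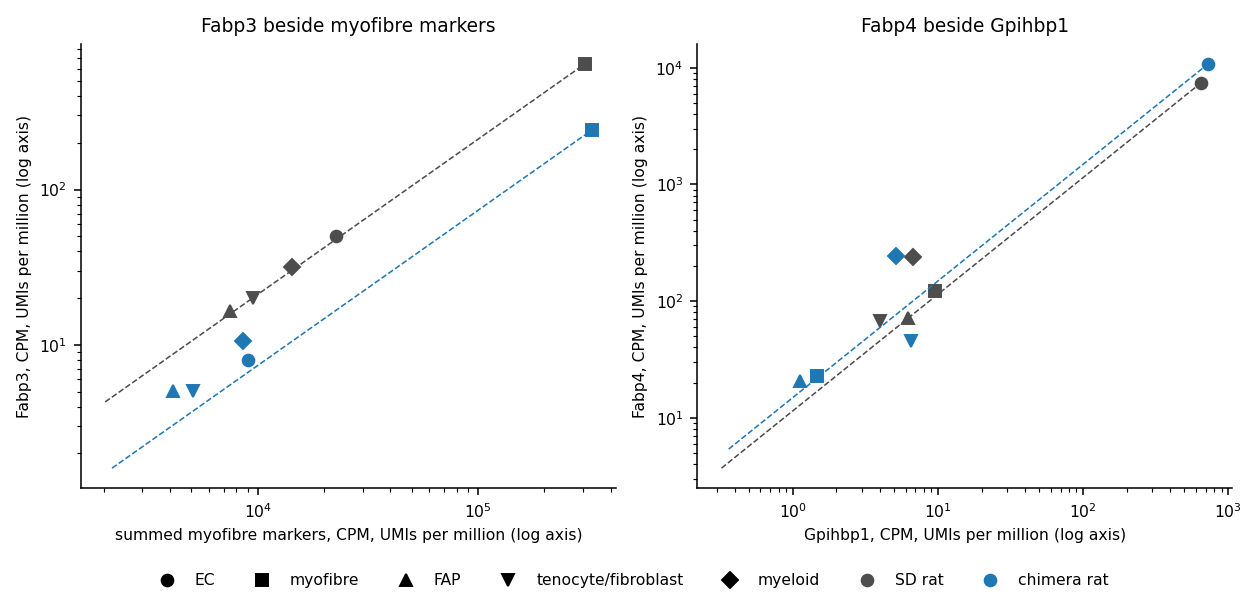
Fabp3 against summed myofibre markers (left) and Fabp4 against Gpihbp1 (right) in each cell class, in CPM on log axes, with a dashed line at the ratio of myocytes or EC in each rat population. The SD rat classes shown lie along the Fabp3 line at about 2.11 UMIs per 1000. In the right panel myeloid cells lie above the line of EC, and chimera rat tenocytes or fibroblasts lie below it.

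The species rows of the chimera gave a further measure of transcripts from other cells, since a rat cell should make no mouse transcript. Mouse Fabp4 was found in 39.9% of chimera rat EC, 37.1% of myocytes, 40.6% of FAPs, 35.2% of tenocytes or fibroblasts and 39.1% of myeloid cells. These shares are alike, although the rat Fabp4 row was seen in 91.9% of the same EC and 11.5% of the same myocytes. In chimera rat myocytes 79.1% of the Fabp4 UMIs of both rows were mouse, in FAPs 70.3%, in myeloid cells 20.1% and in EC 1.78%. Mouse Cd36 was found in 10.0% of chimera rat EC, 5.40% of myocytes, 7.98% of FAPs and 10.1% of myeloid cells, and mouse Fabp5 in 3.76% of chimera rat EC and 3.15% of FAPs. Reads of one species that align to the other cannot be told apart from free RNA in these counts. For Pparg the share on mouse rows was 31.2% in chimera rat EC, against 1.33% for Gpihbp1, 1.40% for Lpl and 1.19% for Rbp7 in the same cells. In chimera mouse EC 9.33% of Lpl UMIs lay on the rat row, against 0.23% for Gpihbp1 and 0.39% for Fabp4.

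Endothelial cells were next divided into capillary, arterial and venous sub-clusters, without the 9 genes and their pathway genes among the genes used to cluster and name them. In the SD rat 1503 EC were capillary and 68 venous, in chimera rat cells 613 capillary, 79 venous and 27 arterial, and in chimera mouse cells 772, 108 and 51. No arterial sub-cluster formed in the SD rat at this resolution, and at a finer one its EC were 1451 capillary, 63 arterial and 57 venous cells. The share of venous EC was 4.33%, 11.0% and 11.6%. Capillary EC were named by other markers at least 2-fold above venous EC, so the naming used the contrast compared next. At least 2-fold higher in capillary than in venous EC were 5 members in the SD rat, 3 in chimera rat cells and 4 in mouse cells, against 12.0%, 9.96% and 11.5% of all genes tested. The 5 of the SD rat include Fabp3, at 224 capillary and 8 venous UMIs, whose EC level kept the myocyte ratio to myofibre markers, and Pparg with 3 venous UMIs.

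Gpihbp1 was the most capillary-restricted member by this ratio in the rat populations, at 714.9 CPM in capillary and 24.0 in venous EC of the SD rat (29.8-fold) and at 1001 and 96.8 in chimera rat cells (10.3-fold). In chimera mouse cells it was at 1518 and 142.1 (10.7-fold). Lpl was also higher in capillaries. Its levels in capillary and venous EC were 481.9 and 98.0 CPM in the SD rat, 470.3 and 224.3 in chimera rat cells and 204.0 and 8.31 in mouse cells, the last from 10 UMIs. Fabp4 differed by less than 2-fold between capillary and venous EC, with 7576 and 5649 CPM in SD rat capillary and venous EC, 11887 and 8902 in chimera rat cells, and 17584 and 15192 in mouse cells. In arterial EC it was at 2509 CPM in chimera rat cells, a log2 ratio of 2.24 for capillary over arterial EC, and at 11914 in mouse cells. Mouse Cd36 (1778 in capillary and 1079 in venous EC) and mouse Fabp5 (1309 and 1102) were likewise below 2-fold. Pparg in capillary over venous EC gave a log2 ratio of 2.55 in the SD rat (0.98 to 4.84, from 3 venous UMIs), 0.20 in chimera rat cells and 1.27 in mouse cells.

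Rbp7 was highest in differently named sub-clusters in the species of the chimera. In chimera rat cells it was at 541.2 CPM in capillary, 146.2 in venous and 60.1 in arterial EC (8 UMIs in 27 cells). In chimera mouse cells it was at 542.9 in capillary, 58.2 in venous and 1662 in arterial EC (501 UMIs in 51 cells). Mouse arterial EC were thus 3.06-fold above mouse capillary EC, while chimera rat capillary EC had a log2 ratio of 3.17 over arterial EC. Of all genes tested, 4.75% were at least 2-fold lower in capillary than in arterial EC of the mouse, and 19.2% at least 2-fold higher in those of chimera rat cells. In SD rat EC at the finer resolution, the log2 ratio of capillary over arterial EC was 1.07 for Rbp7. Gpihbp1 in mouse arterial EC was at 670.2 CPM, against 22.5 (3 UMIs) in chimera rat arterial EC, and Fabp4 at 11914 against 2509. The sub-clusters were named in each population separately, and whether the arterial ones hold the same kind of vessel in both species was not tested.

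**Figure D3:**
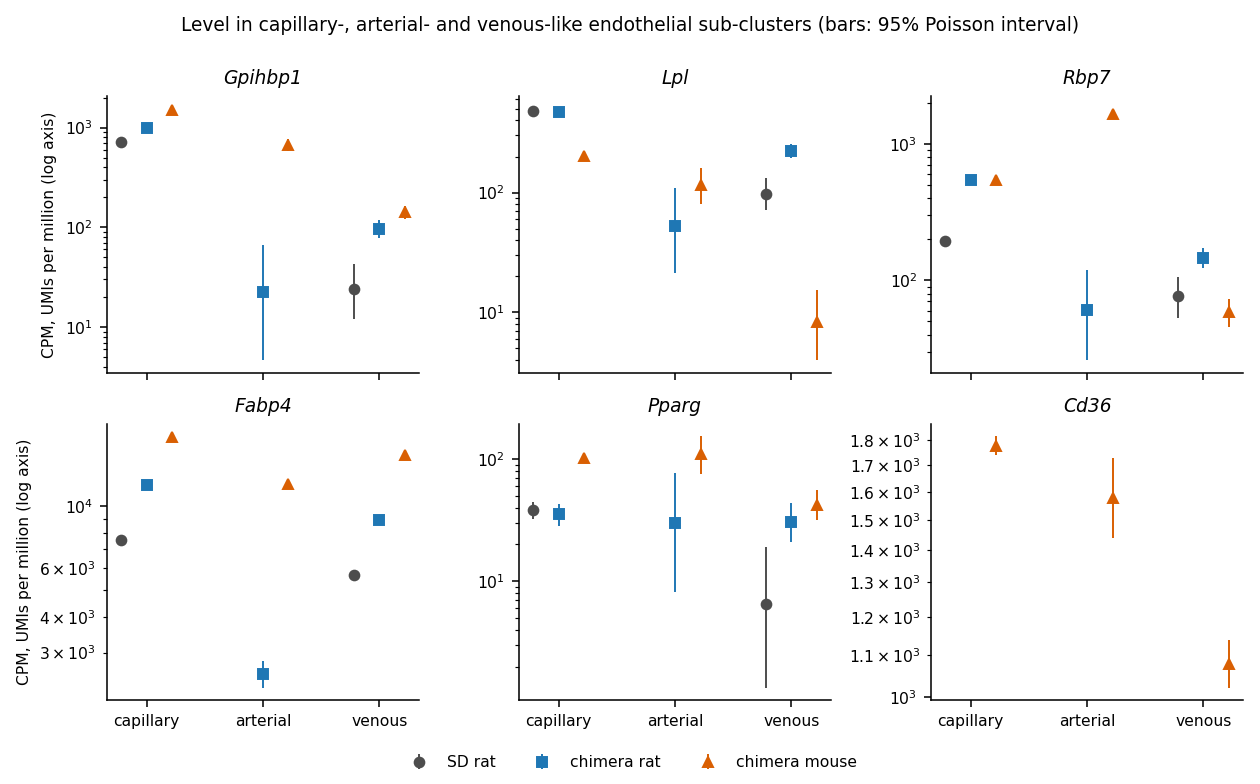
Level (CPM, log axis) of 6 genes in capillary, arterial and venous EC of SD rat, chimera rat and chimera mouse cells, with 95% Poisson bars. Gpihbp1 and Lpl are higher in capillary than in venous EC in each population, Fabp4 is lower in arterial EC of the chimera rat cells (2509) than in their capillary EC (11887), and Rbp7 is highest in arterial EC of the mouse (1662) but in capillary EC of the chimera rat cells (541.2).

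Rat cells of the chimera were then compared with those of the SD rat. In EC, Rbp7 was higher and Fabp3 lower in the chimera by more than 2-fold, out of 6 members with at least 100 UMIs summed over both groups, and 4 were within 2-fold. The Fabp3 of chimera rat EC came from 30 UMIs. In both animals the interval of its ratio to myofibre markers in EC overlapped that of myocytes. Of all genes tested in EC, 2.80% were at least 2-fold higher and 2.76% at least 2-fold lower. Rbp7 was 2.30-fold higher, a log2 ratio of 1.20 (1.08 to 1.33). Fabp4 had a log2 ratio of 0.54 (0.52 to 0.56), Gpihbp1 0.16 (0.09 to 0.24), Lpl -0.19 (-0.29 to -0.09) and Pparg -0.05 (-0.40 to 0.29). With 1 animal per group, animal, library and chimerism cannot be told apart.

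The Rbp7 ratio depended on which cells were counted as endothelial and as rat. It was 1.49 (1.36 to 1.61) on the log2 scale in capillary EC alone (541.2 against 193.3 CPM), a comparison chosen after seeing the data, in which 2.27% of genes were at least 2-fold higher. It was 0.24 when a rat cell was allowed at most 10% of its UMIs on mouse rows, which kept 83 of the 719 chimera rat EC, and 0.96 with 15 principal components. Summing rat and mouse rows in the chimera gave 1.02. Gpihbp1 in capillary EC alone was at 1000.8 CPM among chimera rat cells against 714.9, a log2 ratio of 0.49 (0.41 to 0.56), and with the stricter species limit over all EC it was -0.94. It also turned to -0.04 with at least 1000 UMIs per barcode, -0.12 with 15 principal components and -0.02 with rows summed. Fabp4 turned to -0.15 with the stricter species limit.

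Fabp3 was lower in chimera rat cells in each of the 5 classes. In myocytes the log2 ratio was -1.42 (-1.51 to -1.32), from 1139 UMIs against 4252, where 6.59% of all genes were at least 2-fold lower and the median gene stood at -0.20. In EC it was -2.66 (-3.26 to -2.10), 30 UMIs against 232. It was -1.71 in FAPs, -2.00 in tenocytes or fibroblasts and -1.58 in myeloid cells, where 2.10%, 2.13% and 2.56% of genes were at least 2-fold lower. The summed myofibre markers in EC were at 22658 CPM in the SD rat and 9031 in chimera rat cells, whereas in myocytes they were at 304939 and 327520. Fabp3 per 1000 UMIs of these markers was lower in chimera rat cells in both classes. It was 2.21 in the SD rat and 0.88 in the chimera for EC, and 2.11 and 0.74 for myocytes. The part of myofibre transcripts in the EC difference was not tested. Summed slow-fibre genes in myocytes, a list chosen after seeing the data, were at 2939 and 2028 CPM, and fast-fibre genes at 152410 and 161161. Their part in the Fabp3 difference was not tested.

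Outside EC, Fabp4 in myocytes and FAPs and Gpihbp1 in FAPs were more than 2-fold lower in chimera rat cells. There 79.1% (Fabp4 in myocytes), 70.3% (Fabp4 in FAPs) and 71.9% (Gpihbp1 in FAPs) of their chimera UMIs lay on mouse rows. In myeloid cells and in tenocytes or fibroblasts Fabp4 was within 2-fold, at log2 ratios of 0.04 and -0.59. Fabp4 had a log2 ratio of -2.43 in myocytes and -1.80 in FAPs, and Gpihbp1 -2.48 in FAPs. With rat and mouse rows summed the values were -0.31, -0.23 and -0.83, within 2-fold. These made up the remaining calls, 2 of 3 members lower in myocytes and 3 of 6 in FAPs. Lpl was higher in chimera rat FAPs, with a log2 ratio of 0.71 (0.68 to 0.74), and in myeloid cells, with 0.97 (0.81 to 1.13), both under 2-fold, while it was -0.37 in myocytes and -0.14 in tenocytes or fibroblasts.

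**Figure D4:**
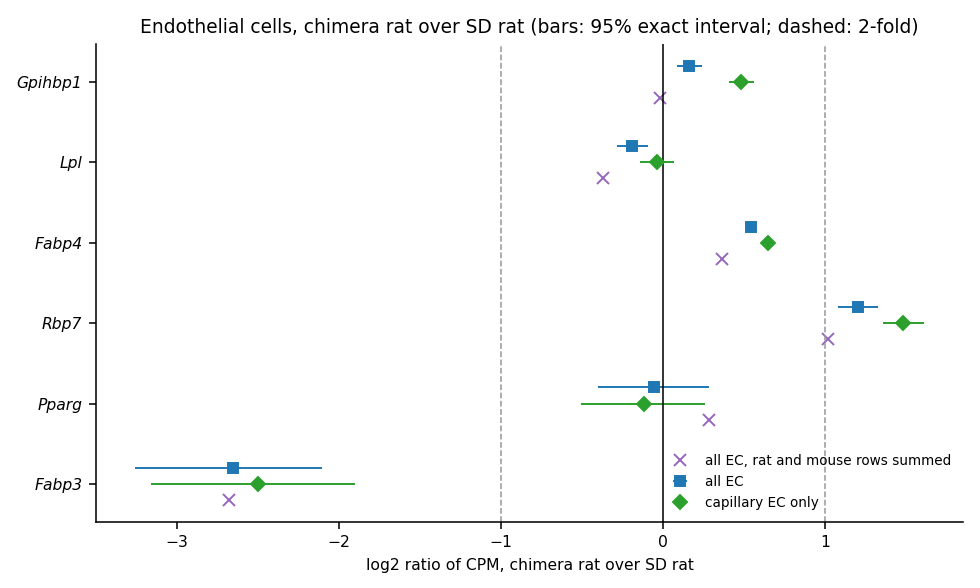
Log2 ratio of chimera rat EC over SD rat EC for each gene, with squares for all EC, diamonds for capillary EC alone, crosses for rat and mouse rows summed, 95% exact intervals, and dashed lines at 2-fold. Rbp7 lies above the upper line (1.20), Fabp3 below the lower one (-2.66), and the rest lie between.

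Mouse and rat EC of the chimera shared 1 animal and 1 library. Of 5 members compared, 2 differed by more than 2-fold, Pparg being higher and Lpl lower in mouse EC, where 30.1% of all genes differed by at least 2-fold in either direction. Pparg had a log2 ratio of 1.42 (1.14 to 1.71), 90.4 against 33.8 CPM, and 1.01 with both species rows summed. Lpl had -1.29 (-1.41 to -1.17), 159.6 against 389.8, and -1.04 with rows summed. Gpihbp1 (0.72), Fabp4 (0.64) and Rbp7 (0.26) were within 2-fold. In capillary EC alone Pparg was at 1.54 and Lpl at -1.21, where 14.7% and 14.5% of genes were at least 2-fold higher and lower, while Rbp7 was at 0.00 (-0.09 to 0.10). In venous EC Lpl was 8.31 CPM in mouse and 224.3 in rat cells, a log2 ratio of -4.75, among 16.8% of genes at least 2-fold lower.

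In FAPs, by contrast, mouse and rat Lpl differed by -0.11 on the log2 scale (646.1 against 697.3 CPM), and Fabp4 was the member past 2-fold at 1.08, where 17.3% of genes were at least 2-fold higher, but at 0.98 with rows summed. In myeloid cells Lpl was at -1.28 and Fabp3 at -3.65 (1 UMI in mouse cells), among 25.2% of genes lower. Summed myofibre markers in these myeloid cells were at 8605 CPM in rat cells (13 genes) and 382.3 in mouse cells (16 genes). Their part in the Fabp3 difference was not tested. The myeloid class was made up differently in the species. Of the 99 mouse cells, 67 were in a monocyte or neutrophil cluster. The other 32 were in a cluster led by MHC class II genes, with Cd209a among its top genes. Of the 1170 rat cells, 549 and 32 were in clusters with chemokine and C1q macrophage genes among their top genes. Another 372 were in a cluster led by Lyz2 and Il1b, and 217 in one led by MHC class II genes. A further 65 mouse cells led by MHC class II genes were left unnamed. In myocytes Fabp4 was at 2.27 from 10 mouse UMIs, where 10.4% of genes were higher, and at 0.31 with rows summed. No member passed in tenocytes or fibroblasts, where 11.3% and 17.3% of genes were at least 2-fold higher and lower. The 3′ ends annotated for each gene in the 2 species cannot be told apart from expression in a comparison of mouse with rat rows.

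The pathway list held 88 other genes of fatty acid and retinoid handling. Of these, 10 of 69 compared in the SD rat (14.5%), 9 of 64 in chimera rat cells (14.1%) and 10 of 53 in mouse cells (18.9%) were at least 2-fold higher in EC than in each of the other 4 classes, against 9.32%, 8.09% and 5.92% of all genes. Caveolin genes were among them, at 1133, 1680 and 1769 CPM in EC for Cav1 and 325.9, 374.7 and 488.2 for Cav2. So were Mgll, a lipase of monoglycerides (400.6, 446.6 and 567.9), Scarb1, a lipoprotein receptor (140.3, 150.4 and 220.1), Lipe, the hormone-sensitive lipase (139.0, 133.7 and 70.2), and the apelin receptor Aplnr (47.6, 62.9 and 83.3). Tcf15, a transcription factor of muscle and heart capillary endothelium that governs fatty acid uptake with Meox2, was at 171.3, 206.1 and 273.9. In myocytes 17, 7 and 3 of the listed genes were highest by 2-fold, where 7.53%, 5.91% and 7.52% of all genes were, among them the β-oxidation enzyme Acadm (193.5, 98.3 and 141.4 CPM), the ligand Vegfb (66.8, 39.1 and 54.4) and, in the SD rat, the mitochondrial carrier Ucp3 (29.9). In FAPs the numbers were 3, 4 and 1, where the shares of all genes were 4.01%, 4.44% and 2.90%.

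The same list set the Fabp3 difference beside other genes. In EC 0 of 41 pathway genes compared differed by 2-fold between chimera rat and SD rat cells, and their median log2 ratio was 0.10. In myocytes 11 of 33 were lower in the chimera, where 6.59% of all genes were, with a list median of -0.74 against -0.20 for all genes. They included Pdk4, which restrains glucose oxidation (-2.11), Plin4, a lipid droplet protein (-1.78), Mlycd (-1.42), Acads (-1.40) and Ucp3 (-1.31). Cav1 at -1.43 was also lower, but it is an endothelial gene, and with rat and mouse rows summed it was at -0.12. Among mouse and rat EC of the chimera 5 of 44 pathway genes were higher in mouse, among them Eci2 (3.32) and Cpt1a (2.33), and 6 were lower, with Acsl5 (-2.43), Dgat1 (-1.96) and Apoe (-1.92) at the bottom. Of all genes 30.1% differed by at least 2-fold in the same comparison, in either direction.

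The genes whose level across 13 classes was most like that of each member were found by Pearson's r of log2(CPM + 10), averaged over SD rat and chimera rat cells, among 11905 genes. The classes of a library share their free RNA and differ in depth, so r is a description. Gpihbp1 was most like C1qtnf9 (0.987), one of the markers used to name capillaries, then Tcf15 (0.976) and Tmem255b (0.968). Fabp4 was most like Flt1 (0.971), Esam (0.963) and Anxa3 (0.947), and Rbp7 most like Ptprb (0.971), Erg (0.964) and Mmrn2 (0.960), which with Flt1 and Esam are endothelial receptor, junction, transcription factor and matrix genes. Flt1, Esam, Ptprb and Erg are themselves among the 15 markers used to name EC. Fabp3 was most like Sh3bgr (0.951), Tmem52 (0.943) and Actn2 (0.942), the last a Z-disc protein. Lpl (Trib1 at 0.853 and Slc2a12 at 0.853), Pparg (Pitpnc1 at 0.901, Ctla2a at 0.862 and Prkch at 0.848) and Slc27a1 (Cetn2 at 0.860, Hs2st1 at 0.809 and Plekhb1 at 0.808) had no gene as close.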

How the data were processed

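Single-cell 3′ RNA libraries of whole-body skeletal muscle from 1 SD rat and 1 rat-mouse chimera were analysed. The files deposited by the authors hold unnormalised UMI counts for each gene in each barcode, from Cell Ranger 7.1.0 on the builds mRatBN7.2 and GRCm39 according to the submitters' processing notes. The chimera was mapped to both genomes together and the SD rat to rat genes only. The chimera library held 13299 barcodes and 118872850 UMIs, the SD rat library 10117 and 70957559.

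Barcodes with under 500 UMIs, under 200 genes or over 20% mitochondrial UMIs were removed. Doublets called by Scrublet (scanpy 1.11.5) were removed, 444 of 12174 in the chimera and 164 of 8980 in the SD rat. Each population was clustered on rows of its own species (2000 variable genes without members and pathway genes, 30 components, 15 neighbours, leidenalg 0.10.2 at resolution 1, EC again at 0.5), and clusters were named from marker lists with at least 3 markers 2-fold up, or 6 for arterial and venous sub-clusters. That threshold and the pooling of myeloid clusters were chosen after seeing the data, and differences from the study's own annotation may come from these rebuilt names. Of the EC sub-clusters not named arterial or venous, those with at least 3 capillary markers 2-fold above the venous sub-clusters were named capillary. UMIs were summed per class and given as CPM with exact Poisson intervals, shares with Clopper-Pearson intervals and ratios with the exact interval of a binomial share (scipy 1.17.1). Genes with at least 100 summed UMIs were compared, and a difference of 2-fold or more was counted. A class at 0 UMIs was set to a floor of 3. Named were all 9 members, of the pathway list up to 6 genes with the largest and 6 with the smallest log2 ratio among those past 2-fold, and 3 genes most like each member. Of the genes this rule names, 2 are not reported here. Scripts were tested on simulated data. The members and lists were chosen with earlier results of these data known.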

Additional observations from a re-analysis of the deposited data

How the results depend on the processing

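With 1 library per group nothing could be left out, and counting intervals do not cover variation between animals. No paired analysis was possible because each group held 1 sample. The log2 ratios of members past 2-fold kept their sign under every alternative tried. Counts with rows summed cover the members with a row of each species. Fabp3 of chimera rat over SD rat cells ranged from -3.72 to -2.50 in EC and from -1.53 to -1.38 in myocytes, past 2-fold each time, and Rbp7 in EC from 0.24 to 1.49, past 2-fold in 9 of 11. Of chimera mouse over chimera rat EC, Pparg ranged from 1.01 to 1.91 (12 of 12) and Lpl from -1.34 to -0.70 (11 of 12). Alternatives without globin rows, with the globin-led mouse cluster as EC and with capillary EC alone were chosen after seeing the data. Of single levels 223 moved beyond their counting interval and 972 did not. The number of members highest in EC stayed at 5 and 4 in the rat populations and was 5 or 6 in mouse cells, and that past 2-fold in EC stayed at 3 and 3 and was 4 to 6 in mouse cells, under the alternatives of cell selection, clustering and scaling. The number past 2-fold in capillary over venous EC was the same at resolution 1, the alternative tried for it.

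Counts of members past 2-fold that moved by over 1.5 times are given against the reported value, and their causes were not tested beyond the change made. Chimera rat against SD rat, reported as 2 in EC, 2 in myocytes, 3 in FAPs, 1 in tenocytes and 1 in myeloid cells, gave in EC 1 with the 90% species limit, with 15 components and with a minimum of 500 summed UMIs. It gave in myocytes 1 and in FAPs 1 with species rows summed, and in FAPs 1 with the 90% limit. In tenocytes it gave 0 at 500 summed UMIs and 2 at 1.5-fold. In myeloid cells it gave 2 with the 90% limit, with species by majority, without mitochondrial and ribosomal genes and at 1.5-fold, and 0 at 500 summed UMIs. Chimera mouse against chimera rat, reported as 2 in EC, 1 in myocytes, 1 in FAPs, 0 in tenocytes and 2 in myeloid cells, gave in EC 4 with the 90% limit, at 20 summed UMIs and at 1.5-fold. In myocytes it gave 2 by majority and at 1.5-fold, and 0 with rows summed and at 500 summed UMIs. In FAPs it gave 0 with doublets kept and with the 90% limit. In tenocytes it gave 1 at 1000 UMIs per barcode, with members used in clustering and without mitochondrial and ribosomal genes, and 2 with rows summed, at 20 summed UMIs and at 1.5-fold. In myeloid cells it gave 1 by majority and at 500 summed UMIs, and 4 at 20 summed UMIs.

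Pathway genes past 2-fold between chimera rat and SD rat, reported as 0 in EC, 11 in myocytes, 1 in FAPs, 1 in tenocytes and 1 in myeloid cells, were 7, 17, 4, 5 and 4 at 20 summed UMIs and 5, 20, 4, 3 and 9 at 1.5-fold. At 500 summed UMIs they were 1 in myocytes and 0 in FAPs, tenocytes and myeloid cells.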
